A study of Homo sapiens with 4 samples.

Results

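Box C/D small nucleolar RNAs (snoRNAs) carry the gene symbol SNORD, and 308 of the 53209 transcript records in these libraries belonged to this class. They were chosen by gene symbol: RefSeq identifiers were matched to symbols, and every record whose symbol starts with SNORD was kept unless the name marked an antisense transcript or a host gene. The class was put forward with earlier results of these data known, so its levels are given as a description. The 308 records covered 267 symbols, and 27 records lay on alternate contigs, all of them listed at 0. The libraries came from a miRNA pull out assay in DU-145, a human prostate cancer cell line. In the control arm (miR-28CT, the background of the assay) the transfected duplex of miR-28-5p had no tag. In the other arm (miR-28BIO) a mix of duplexes carried a biotin tag and a thiouridine, which allows crosslinking by ultraviolet light, and the dose was 60 nM in both. Both arms therefore carried additional miR-28-5p, both were irradiated, and total RNA from both was passed over streptavidin beads before sequencing. Each arm had 2 libraries (replicates 1 and 2), and the contrast asks which RNAs were recovered with the tagged miRNA above the bead background. All material came from 1 cell line, and p-values measure only the spread between the 2 libraries of an arm.

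Box C/D snoRNAs are short nucleolar RNAs that assemble with fibrillarin (FBL), NOP56, NOP58 and SNU13. Most of them guide the 2′-O-methylation of ribosomal RNA by base pairing. A few, among them U3, U8, U14 and U22, act in the cleavage or folding of the precursor of ribosomal RNA. In human cells most are cut out of the introns of host genes, many of which encode ribosomal proteins or translation factors. The class is named after a box C near the 5′ end and a box D near the 3′ end.

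The sequences of 12 of the 14 records whose levels in the 2 arms did not overlap are shown, since the comparison of the arms turns on them, and 4 more because they had the highest mean scaled FPKM. All were read from hg38 at the coordinates in the deposited tables, 5′ to 3′ on the strand of the snoRNA. Capitals mark the letters TGATG of box C within the first 25 bases and the letters CTGA of box D within the last 25 bases, searched on that strand only. SNORD17 (chr20:17962710-17962946, minus strand) lies in an intron of SNX5 and SNORD3A, which is U3 (chr17:19188016-19188232, plus strand), lies in no host gene of the annotation. SNORD58A (chr18:49491283-49491347, minus strand) lies in RPL17, SNORD57 (chr20:2656939-2657010, plus strand) in NOP56, SNORD12C (chr20:49278945-49279023, plus strand) in ZFAS1, SNORD18A (chr15:66503245-66503314, minus strand) in RPL4 and SNORD35A (chr19:49491175-49491260, plus strand) in RPL13A, each in an intron. SNORD1C (chr17:76558792-76558869, plus strand) lies in an intron of SNHG16, SNORD116-13 (chr15:25079057-25079150, plus strand) within SNHG14 and SNORD36B (chr9:133350094-133350164, plus strand) in an intron of RPL7A. SNORD76 (chr1:173866635-173866715, minus strand) lies in an intron of GAS5 and SNORD91B (chr17:2329125-2329210, minus strand) in an intron of TSR1. Of the 4 records with the highest mean scaled FPKM, SNORD102 (chr13:27255064-27255135, plus strand) lies in an intron of RPL21, SNORD29 (chr11:62853904-62853968, minus strand) of SNHG1, SNORD100 (chr6:132816802-132816877, plus strand) of RPS12 and SNORD47 (chr1:173864369-173864445, minus strand) of GAS5.
SNORD17: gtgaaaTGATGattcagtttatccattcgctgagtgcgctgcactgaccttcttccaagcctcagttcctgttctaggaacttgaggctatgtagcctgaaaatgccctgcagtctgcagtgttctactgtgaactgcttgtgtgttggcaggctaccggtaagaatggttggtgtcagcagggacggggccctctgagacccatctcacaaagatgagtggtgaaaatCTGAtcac
SNORD3A: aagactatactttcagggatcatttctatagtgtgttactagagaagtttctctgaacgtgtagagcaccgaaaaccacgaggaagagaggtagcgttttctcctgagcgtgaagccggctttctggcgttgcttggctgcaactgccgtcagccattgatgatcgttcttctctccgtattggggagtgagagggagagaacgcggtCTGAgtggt
SNORD58A: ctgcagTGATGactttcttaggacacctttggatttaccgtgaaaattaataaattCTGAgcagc
SNORD57: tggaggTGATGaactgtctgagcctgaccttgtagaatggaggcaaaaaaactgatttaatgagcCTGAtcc
SNORD12C: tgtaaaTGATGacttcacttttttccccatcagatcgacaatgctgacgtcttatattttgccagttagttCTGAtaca
SNORD18A: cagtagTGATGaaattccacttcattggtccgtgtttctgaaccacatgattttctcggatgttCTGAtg
SNORD35A: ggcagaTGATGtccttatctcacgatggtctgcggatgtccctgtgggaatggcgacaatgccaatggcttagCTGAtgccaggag
SNORD1C: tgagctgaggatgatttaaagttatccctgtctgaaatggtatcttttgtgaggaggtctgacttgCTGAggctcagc
SNORD116-13: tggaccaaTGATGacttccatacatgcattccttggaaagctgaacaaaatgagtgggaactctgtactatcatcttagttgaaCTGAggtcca
SNORD36B: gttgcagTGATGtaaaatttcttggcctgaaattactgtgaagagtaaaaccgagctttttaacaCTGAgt
SNORD76: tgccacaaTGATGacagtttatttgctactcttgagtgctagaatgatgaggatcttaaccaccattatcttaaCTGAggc
SNORD91B: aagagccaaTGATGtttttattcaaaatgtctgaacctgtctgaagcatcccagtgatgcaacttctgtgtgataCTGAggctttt
SNORD102: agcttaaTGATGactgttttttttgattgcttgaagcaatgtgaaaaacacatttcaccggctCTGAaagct
SNORD29: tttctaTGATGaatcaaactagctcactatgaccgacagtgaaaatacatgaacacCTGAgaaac
SNORD100: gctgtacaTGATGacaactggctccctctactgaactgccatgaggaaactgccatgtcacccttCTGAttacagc
SNORD47: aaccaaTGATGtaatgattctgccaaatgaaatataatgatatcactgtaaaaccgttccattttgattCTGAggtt

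The letters of both boxes stood at these positions in 240 of the 281 records on primary chromosomes, or 85.4%. Box C letters were found in 246 records (87.5%) and box D letters in 271 (96.4%). In windows of equal length on the same strand, 200 bases away, TGATG was found in 9 of 281 (3.2%), CTGA in 39 (13.9%) and both in 4 (1.42%). The 2 motifs can overlap in the run CTGATG. Among the 114 records above 0 in any library, 97 (85.1%) had both boxes, close to the share in all records. This definition was chosen after the counts of a stricter one had been seen, TGATGA within the first 20 bases and CTGA within the last 20, which missed abundant records with another letter after TGATG. By the stricter letters 189 of 281 records (67.3%) had both boxes, against 2 of the windows (0.712%), and the share was lower among the records above 0, at 66 of 114 (57.9%), so the likeness of these shares depended on the definition. U3 and SNORD1C had the box D letters alone within these windows.

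The class was recovered unevenly from the pull outs. FPKM (the authors' Cufflinks estimate of fragments, scaled to transcript length and library size) was above 0 in at least 1 library for 114 of 308 records and was listed at 0 in all 4 for 194, of which 12 had the status LOWDATA in every library. Among the 114 there were 37 above 0 in 1 library, 34 in 2, 22 in 3 and 21 in all 4. In miR-28CT replicates 1 and 2, 50 and 83 records were above 0. In miR-28BIO replicates 1 and 2 the numbers were 41 and 81. The replicate 2 libraries of both arms thus held more of the class than the replicate 1 libraries, and the summed FPKM followed the same order, with 13255 and 32170 in miR-28CT and 8690.2 and 33603 in miR-28BIO. Summed midpoints of the intervals that Cufflinks gives were 47.5 and 90.8 per 1000000 fragments in miR-28CT and 21.0 and 60.2 in miR-28BIO, so that replicate 2 was again higher in each arm, while of the 2 replicate 2 libraries the one of miR-28BIO had the smaller sum of midpoints and the larger sum of FPKM. By replicate number, 50 records were above 0 in replicate 2 libraries alone and 7 in replicate 1 libraries alone. A total of 18 records were above 0 in both replicate 2 libraries and in neither replicate 1 library, against 2 records for the opposite. By arm, 8 records were above 0 in both miR-28CT libraries and in neither miR-28BIO library, or 7.02% of the 114, against 1.57% of all 15587 transcripts that passed the filter of the fit, and 0 records showed the opposite, against 1.62%. All 114 entered this share by being above 0 in at least 1 library.

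**Figure D1:**
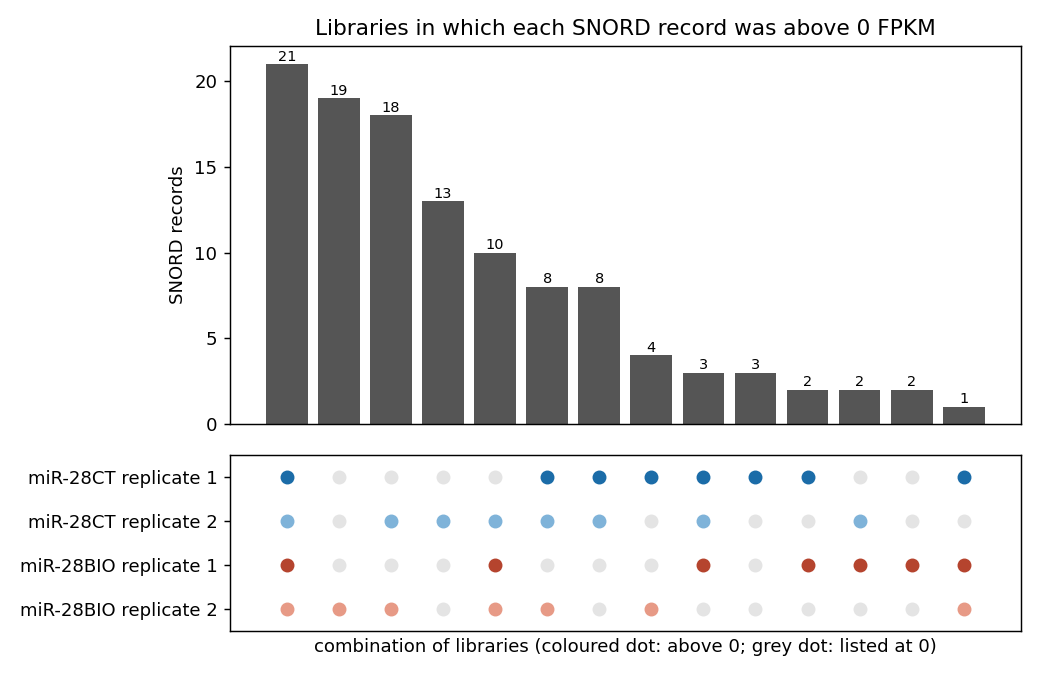
Number of SNORD records (vertical axis, bars) above 0 FPKM in each combination of the 4 libraries, with coloured dots under a bar for the libraries above 0 and grey dots for those listed at 0. The 194 records listed at 0 in every library are left out. The 18 records seen in both replicate 2 libraries alone outnumber the 8 seen in both miR-28CT libraries alone, and no bar stands for both miR-28BIO libraries alone.

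H/ACA snoRNAs and Cajal body RNAs had larger shares of records above 0 than the SNORD class, and microRNA hairpins had a smaller one. Among H/ACA snoRNAs (SNORA, guides of pseudouridylation), 75 of 115 records (65.2%) were above 0 in any library and 19 (16.5%) in all 4, against 37.0% and 6.82% of SNORD records. Cajal body RNAs (SCARNA) were above 0 in 19 of 24 records (79.2%). Their records were longer, with a median of 134 bases for SNORA and 155 for SCARNA against 78 for SNORD. MicroRNA hairpins, with a median of 80 bases, were above 0 in 86 of 2004 records (4.29%). Within the SNORD class, the median length was 80.5 bases for records above 0 and 77 for those at 0. The 308 SNORD records include 27 on alternate contigs, all listed at 0. They also include 9 SNORD113, 31 SNORD114 and 50 SNORD115 records, all at 0, and 29 SNORD116 records, 7 of them above 0. In coding hosts 73 of 108 SNORD records (67.6%) were above 0. No test was made between the classes, and the parts of length and of the makeup of each class in these shares were not tested.

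The precision behind most SNORD values was low. The bounds of the interval that Cufflinks gives beside each FPKM were whole numbers of fragments over the record's length for 98.5% to 99.3% of the SNORD bounds, within 0.05 of a fragment, once a total of 18530000 and 13460000 fragments (miR-28CT replicates 1 and 2) and of 17930000 and 15200000 (miR-28BIO) was fitted to each library. Of the 255 SNORD values above 0, 184 (72.2%) had an upper bound under 20 fragments, 91 had a lower bound of 0, and 13 had a lower bound of at least 20. The FPKM themselves exceeded the upper bound of their own interval in 254 of the 255 values. Their median ratio to the interval midpoint was 35.6 under 80 bases, 21.4 from 80 to under 120 bases and 5.83 at 120 bases or more, while it was 0.9996 over all transcripts of at least 1000 bases. An order of SNORD records by FPKM is therefore not an order of abundance. Among SNORD records of equal length, FPKM over the lowest one of that length was a whole number, within 0.02, in 5 of 6 ratios in miR-28CT replicate 1 and in 3 of 4 in miR-28BIO replicate 1, but in 0 of 22 and 1 of 27 in the replicate 2 libraries.

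**Figure D2:**
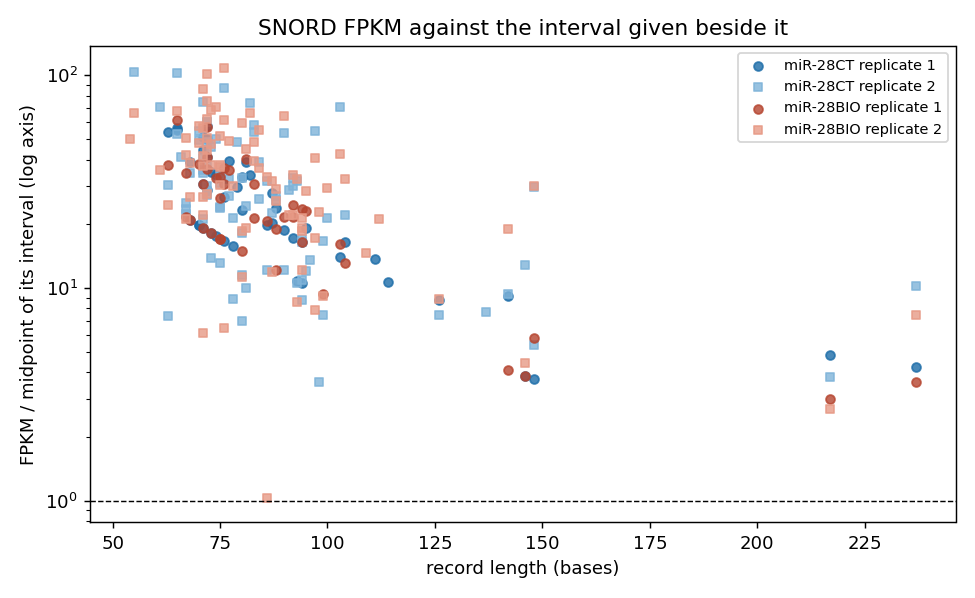
Ratio of FPKM to the midpoint of the Cufflinks interval (vertical, log axis) against record length in bases (horizontal) for the 255 SNORD values above 0, coloured by library, with a dashed line at a ratio of 1. The ratio lies highest for records under 80 bases and falls with length, to between 2.70 and 10.2 for the 2 records above 200 bases.

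The 2 longest SNORD records above 0 were lower in both miR-28BIO libraries. SNORD17, a box C/D snoRNA of 237 bases, had 313 FPKM in miR-28CT replicate 1 and 402 in replicate 2. In miR-28BIO it had 23.3 in replicate 1 and 40.2 in replicate 2. Its interval was 277 to 370 and 97 to 154 fragments in miR-28CT, against 15 to 40 and 9 to 30 in miR-28BIO. The arms did not overlap in FPKM, and the intervals, divided by the library totals, did not overlap either. Scaled FPKM (each library divided by a median-of-ratios factor) averaged 383 ± 127 in miR-28CT and 29.5 ± 10.5 in miR-28BIO (SD, n = 2). The log2 fold change of miR-28BIO over miR-28CT was -3.70 with an SE of 0.64, and it was -3.73 between the replicate 1 libraries and -3.68 between the replicate 2 libraries. Its limma adjusted p was 0.845 over all 15587 tested transcripts.

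SNORD3A is U3, the snoRNA needed for the early cleavages of the precursor of ribosomal RNA, with 217 bases. Its FPKM was 98.5 in miR-28CT replicate 1 and 194 in replicate 2, against 6.97 and 10.2 in the corresponding miR-28BIO libraries. The intervals were 59 to 105 and 119 to 179 fragments in miR-28CT against 2 to 16 and 4 to 21 in miR-28BIO, again without overlap once divided by the totals. Scaled FPKM averaged 160.3 ± 95.8 in miR-28CT and 8.00 ± 1.97 in miR-28BIO (SD, n = 2). The log2 fold change was -4.19 with an SE of 0.66 and a limma adjusted p of 0.832, and it was -3.79 and -4.59 within the replicate 1 and replicate 2 pairs. The other 4 U3 records (SNORD3B-1, SNORD3B-2, SNORD3C and SNORD3D) were listed at 0 in all libraries. These copies are nearly identical in sequence, so how reads were split among them is uncertain.

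Over the class, the fitted contrast called no member. With limma and Benjamini-Hochberg adjustment over 15587 transcripts, 0 SNORD records were higher in miR-28BIO (background 0%) and 0 were lower (background 0%) at an adjusted p under 0.05. At an unadjusted p under 0.05, 0 of the 114 tested records were higher, against 2.09% of all tested transcripts, and 10 were lower, or 8.77%, against 1.49%. Of these 10, 8 were listed at 0 in both miR-28BIO libraries, where the log values of that arm are equal and have no spread, and the other two were SNORD17 and SNORD3A. A looser description counts the records whose 2 libraries of an arm both lie beyond those of the other arm. By this count 12 SNORD records were lower in miR-28BIO, or 10.5%, against a background of 12.0%, and 2 were higher, or 1.75%, against a background of 11.5%. The tested records passed the filter by being above 0 in at least 1 library, and 93 of them were listed at 0 in at least 1. Their median log2 fold change was -0.36 beside -0.08 over all tested transcripts, and their median SE was 3.81 beside 1.07. The median was -0.38 over the 173 tested records under 150 bases outside the class, with 12 lower and 8 higher in both miR-28BIO libraries. It was -0.72 over 74 SNORA records (6 lower, 3 higher) and -0.17 over 18 SCARNA records (4 lower, 1 higher). The SNORD median rested on single libraries: it was -2.69 without miR-28CT replicate 1, 0.29 without miR-28CT replicate 2, 1.44 without miR-28BIO replicate 1 and -3.65 without miR-28BIO replicate 2, and it was -0.10 with the interval midpoint in place of FPKM.

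In 8 of the 12 lower records, both miR-28BIO libraries were listed at 0. In replicates 1 and 2 of miR-28CT, SNORD58A had 665 and 872 FPKM, SNORD57 had 292 and 379, and SNORD12C had 182 and 206. The 3 had limma adjusted p = 0.151 each, and adjusted p = 0.0416 each when FPKM were summed per gene name before the fit, where they were the 3 features called of 11309 (0.0265%). These p-values are given as a description only, since the 3 records passed the filter through miR-28CT alone and their values in miR-28BIO have no spread. No fold is given against a group listed at 0. Their intervals in miR-28CT were 5 to 24 and 5 to 24 fragments for SNORD58A, 2 to 17 and 2 to 17 for SNORD57 and 2 to 16 and 0 to 9 for SNORD12C, so that each rested on a small number of fragments. SNORD18A had 53.0 and 521 FPKM in miR-28CT, and SNORD35A had 56.0 and 246. SNORD1C had 37.9 and 29.5, SNORD116-13 had 42.2 and 24.2, and SNORD15A, an RPS3 intron snoRNA, had 4.78 and 24.4. For SNORD18A, SNORD35A, SNORD1C, SNORD116-13 and SNORD15A the lower bound was 0 fragments in at least 1 miR-28CT library, and the adjusted p ranged from 0.485 to 0.845.

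SNORD4B and SNORD36B complete the lower records. SNORD4B, from an intron of RPL23A, had 223 and 227 FPKM in the miR-28CT libraries, 185 in miR-28BIO replicate 1 and 0 in miR-28BIO replicate 2. SNORD36B had 456 and 237 FPKM in miR-28CT and 157 and 173 in miR-28BIO, with a log2 fold change of -1.17 and an SE of 0.72. Both records had intervals in miR-28BIO replicate 1 that overlapped those of miR-28CT relative to the totals.

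The 2 records higher in both miR-28BIO libraries were SNORD76 and SNORD91B. In miR-28CT, SNORD76 had 506 and 166 FPKM, against 872 and 672 in miR-28BIO, a log2 fold change of 1.23 with an SE of 1.03, which was 0.59 without miR-28CT replicate 2 and 1.87 without miR-28CT replicate 1. SNORD91B was listed at 0 in miR-28CT replicate 1 and had 36.7 FPKM in miR-28CT replicate 2, against 86.7 and 114 in miR-28BIO. Their intervals of 17 to 46 and 8 to 29 fragments for SNORD76, and of 1 to 12 and 0 to 9 for SNORD91B, in miR-28BIO overlapped those of miR-28CT replicate 2 relative to the totals.

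**Figure D3:**
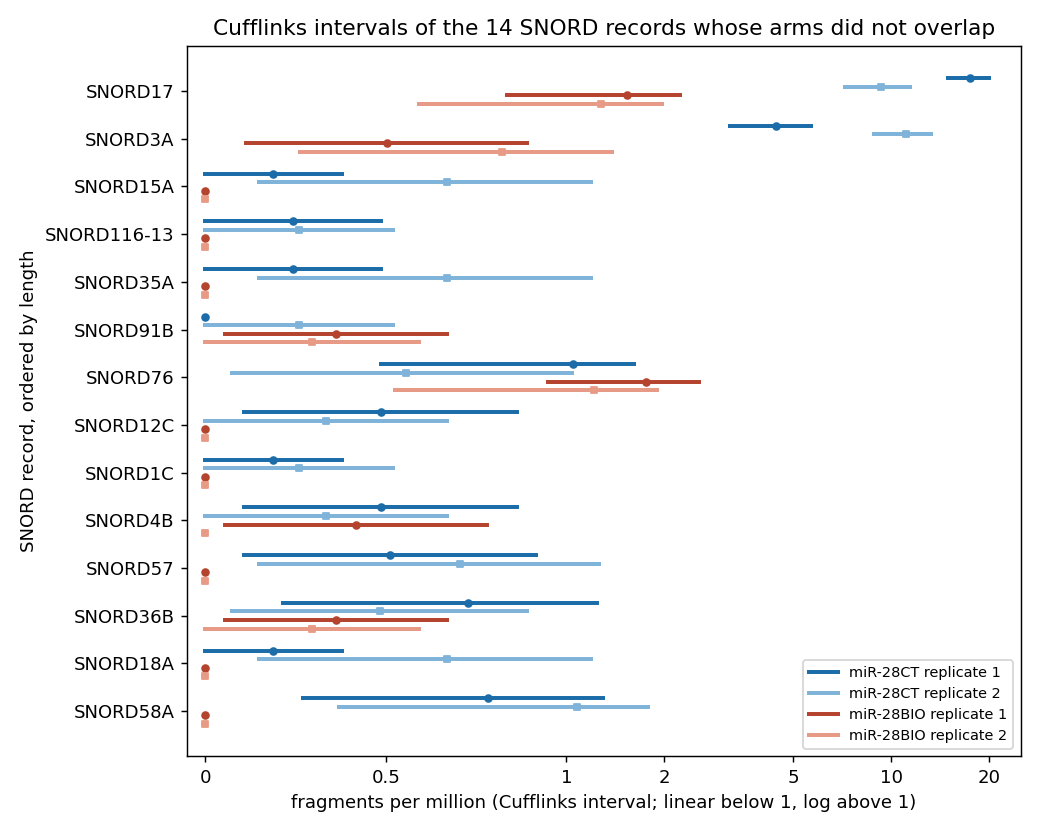
Cufflinks intervals (lines) and midpoints (points) relative to the library total, on an axis linear below 1 and logarithmic above, for the 14 SNORD records whose arms did not overlap, ordered by length and coloured by library. The miR-28CT and miR-28BIO lines of SNORD17 and SNORD3A are apart, and those of SNORD76 and SNORD36B overlap.

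The host genes of these records were compared with them side by side, with host FPKM summed over the records of each gene. SNX5, the host of SNORD17 and a sorting nexin of endosomes, had 7.51 and 7.30 FPKM in miR-28CT and 8.47 and 10.6 in miR-28BIO, so the host was not lower in both libraries where its snoRNA was. SNHG16, the host of SNORD1C, had 34.4 and 37.4 FPKM in miR-28CT and 65.2 and 94.9 in miR-28BIO, the opposite order to that of its snoRNA. ZFAS1, the host of SNORD12C, had 139.5 and 138 against 62.5 and 49.8 FPKM, and RPL17, the host of SNORD58A, had 11.4 and 25.7 against 5.04 and 6.61. RPS3, which hosts SNORD15A, had 201 and 149 FPKM in miR-28CT and 93.6 and 74.2 in miR-28BIO. NOP56, the host of SNORD57, had 24.9 and 17.9 against 17.6 and 15.0, summed over 2 transcripts that each overlapped between the arms. GAS5, which hosts SNORD76, had 40.0 and 90.7 FPKM in miR-28CT and 22.8 and 38.6 in miR-28BIO, while SNORD76 was higher there. For the other 5 records with a host value, in RPL4, RPL13A, RPL7A, RPL23A and TSR1, the arms overlapped in the host. Of 12 records, 4 shared the order of arms with their host in deposited FPKM, 3 had the opposite order and 5 had hosts that overlapped. With scaled FPKM the numbers were 5, 2 and 5, since SNX5 then overlapped between the arms and RPL13A was lower in miR-28BIO. No test was made.

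The 8 records with the highest mean scaled FPKM were 65 to 77 bases long and came from 6 hosts. This is an order of FPKM, which was highest over the interval midpoint in short records: the midpoint of SNORD17 was 323.5 fragments in miR-28CT replicate 1, against 85.5 for SNORD102 and 18.5 for SNORD29. SNORD102, from RPL21, had 3692 and 778 FPKM in miR-28CT and 2511 and 1282 in miR-28BIO, with the replicate 1 libraries highest. SNORD29 had 864 and 3029.7 against 1030 and 857 FPKM. SNORD100, from RPS12, had 41.1 and 929 against 255 and 3329 FPKM, with the replicate 2 libraries highest. In these 3 records the arms overlapped. SNORD47 had 513 and 2058 FPKM in miR-28CT and 245 and 1187 in miR-28BIO. SNORD36A, from RPL7A, had 923 and 1512 against 351 and 1342, and SNORD80, from GAS5, had 761 and 1600.5 against 52.4 and 1471. For all 3 the lowest value was in miR-28BIO replicate 1. SNORD2, from EIF4A2, had 53.0 and 1656 against 274 and 1105 FPKM, and SNORD28, from SNHG1, had 214 and 1094 against 44.3 and 1348. In the 8 records the log2 fold change ranged from -2.16 for SNORD80 to 2.06 for SNORD100, with an SE between 1.44 and 2.32. Both of these turned with 1 library left out, to 0.22 for SNORD80 without miR-28BIO replicate 1 and to -0.35 for SNORD100 without miR-28CT replicate 1. In replicate pairs 1 and 2 both kept their sign, at -3.84 and -0.48 for SNORD80 and 2.64 and 1.49 for SNORD100. The arms overlapped in all 8. The median log2 ratio of replicate 2 over replicate 1 was 1.44 among the 40 records above 0 in both miR-28CT libraries, with 32 higher in replicate 2, and 1.85 among the 32 above 0 in both miR-28BIO libraries, with 27 higher.

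**Figure D4:**
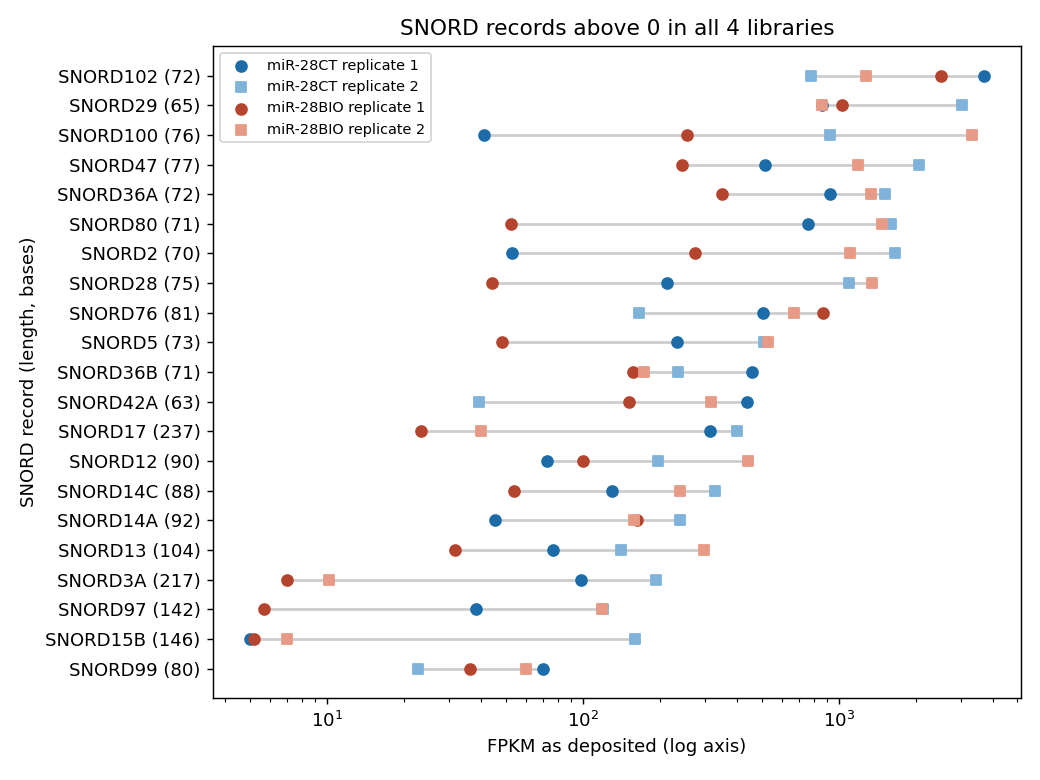
FPKM as deposited (horizontal, log axis) of the 21 SNORD records above 0 in all 4 libraries, ordered by mean scaled FPKM with length in bases in brackets, with points coloured by library and grey lines spanning the 4 values. The miR-28BIO points lie below both miR-28CT points for SNORD17, SNORD3A and SNORD36B and above both for SNORD76.

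Among the other records picked by role, U8, U13, U14 and U22, the arms overlapped. SNORD13 (U13) had 76.4 and 142 FPKM in miR-28CT and 31.6 and 298 in miR-28BIO. SNORD22 (U22), from SNHG1, had 24.5 and 281 FPKM in miR-28CT, 0 in miR-28BIO replicate 1 and 119.7 in miR-28BIO replicate 2. SNORD118 (U8) had the status LOWDATA and was listed at 0 in all libraries. Of the 5 U14 records, SNORD14C had 130 and 329 against 53.8 and 239.7 FPKM and SNORD14A had 45.2 and 239 against 164 and 158. SNORD14D had 216 and 0 against 0 and 98.4 FPKM, SNORD14B had 152 FPKM in miR-28CT replicate 2 and 0 in the other libraries, and SNORD14E was listed at 0 in all. SNORD55 and SNORD110, used as reference RNAs for qRT-PCR, were each listed at 0 in 2 or more libraries. SNORD55 had 909 FPKM in miR-28BIO replicate 2 and 0 elsewhere, and SNORD110 had 231 in miR-28CT replicate 2, 88.5 in miR-28BIO replicate 1 and 0 in the others. SNORD101, beside SNORD100 in RPS12, had 2926 FPKM in miR-28BIO replicate 2, with an interval of 30 to 65 fragments, and 0 in the other 3 libraries.

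Host genes and gene clusters set apart records above 0 from those at 0. Among records in coding hosts 73 of 108 (67.6%) were above 0 in any library, and among those in long noncoding hosts 36 of 164. The imprinted clusters account for much of the second group. SNORD113 (9 records), SNORD114 (31) and SNORD115 (50) were listed at 0 throughout, and 7 of 29 SNORD116 records were above 0, none of them in all 4 libraries. The 50 SNORD115 records covered 43 symbols, and 4 had the status LOWDATA. How reads matching several copies within these clusters were assigned is not known, so a value of 0 need not mean absence. Outside the 3 hosts that hold these clusters in the annotation (SNHG14, MEG8 and MIR493HG), 29 of 39 records in long noncoding hosts were above 0. SNHG1 had all 8 of its records above 0 and GAS5 7 of 10. Summed FPKM of the SNHG1 records was 1258 and 6302 in miR-28CT and 1182 and 4439 in miR-28BIO, and that of the GAS5 records was 1780 and 5858 against 1420 and 4313. In both hosts the replicate 2 libraries were highest in each arm. The RPS12 pair summed to 41.1 and 929 against 255 and 6255 FPKM, and the RPL17 records to 665 and 917 against 0 and 0. Of the RPL17 records 1 had the status LOWDATA, and their summed upper bound was 205 fragments in miR-28BIO replicate 2.

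**Figure D5:**
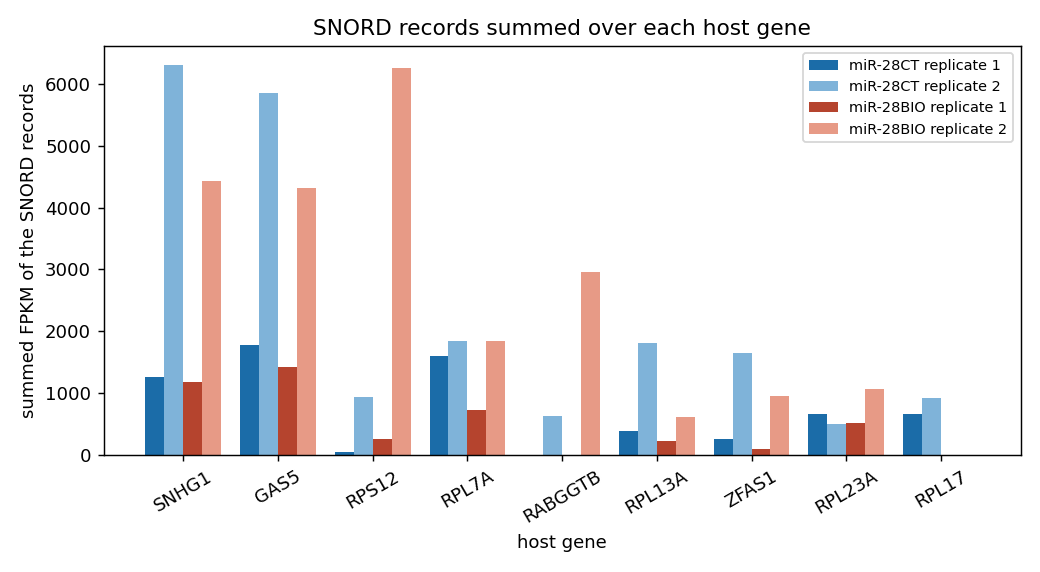
Summed FPKM (vertical axis) of the SNORD records of 9 host genes in each of the 4 libraries (bars). Replicate 2 bars are the tallest within each arm for SNHG1, GAS5, RPS12, RPL7A, RABGGTB, RPL13A and ZFAS1, and the RPL17 bars are at 0 in both miR-28BIO libraries.

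The proteins of the box C/D particle were read from the same fit, as a list picked by role. Of 31 genes, 28 were tested with 35 transcripts, and 0 passed an adjusted p of 0.05 in either direction by limma, while 1 had an unadjusted p under 0.05, against 557 of all 15587. The median log2 fold change of the 35 transcripts was -0.35, beside -0.08 over all tested transcripts. FBL, the methyltransferase of the particle, had 41.4 and 23.2 FPKM in miR-28CT and 22.6 and 12.5 in miR-28BIO, and SNU13, which binds the box C and D fold, had 17.1 and 33.3 against 13.5 and 15.6. NOP58 had 26.1 and 2.46 against 23.6 and 4.26 FPKM, and RRP9, a protein of the U3 particle, had 3.38 and 2.05 against 1.98 and 1.00. The 2 NOP56 transcripts overlapped between the arms, as did NOP58. In all, 6 of the 35 transcripts (17.1%) were lower in both miR-28BIO libraries (FBL, SNU13, RRP9, RUVBL1, RUVBL2 and UTP18), and 3 (8.57%) were higher, 1 each of RPAP3, ZNHIT6 and COIL, beside the 12.0% and 11.5% of all tested transcripts given above. COIL, which encodes coilin of the Cajal body, had 11.4 and 2.40 FPKM in miR-28CT and 87.6 and 41.0 in miR-28BIO. Its log2 fold change of 3.32 had an SE of 0.89, an unadjusted limma p of 0.0206 and an adjusted p of 1.0.

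Cell type markers were checked against the labelled line. KRT8, KRT18, KRT19, EPCAM, CDH1 and VIM were above 0 in all libraries and summed to 349 and 409.7 FPKM in miR-28CT and 199.5 and 311 in miR-28BIO. VIM, the mesenchymal filament vimentin, made up 251 and 212 FPKM of these sums in miR-28CT and 142 and 189 in miR-28BIO, while CDH1 (E-cadherin) had between 0.907 and 1.77. KLK3 and TMPRSS2, genes of luminal prostate cells, were listed at 0 in all libraries, as were PTPRC, CD3E and PECAM1 of other cell types. CD68 of macrophages had between 3.34 and 8.09 FPKM, COL1A1 of fibroblasts between 0.11 and 0.178, and ALB of hepatocytes was above 0 in 1 library. Scaling factors lay between 0.850 and 1.09. Replicate 2 libraries had the lower fitted totals in both arms and the higher SNORD sums, and the part of depth in the SNORD values was not tested.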

How the data were processed

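RNA recovered by the pull out was sequenced in 4 libraries (TruSeq Stranded Total RNA, single reads). The deposited tables hold 1 record per RefSeq transcript with FPKM by the authors, a status, a coverage signal, which was not analysed here, and 2 interval bounds, treated as a score. Per the submitters' processing notes the tools were FastQC 0.10.1, cutadapt, TopHat2 2.0.9, Cufflinks 2.1.1 and Cuffdiff, on hg38.

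FPKM were divided by median-of-ratios factors from the 11650 records above 0 in all libraries. Records with status OK in all libraries and a mean scaled FPKM of at least 0.5 (15587, of them 114 SNORD) were fitted as log2(scaled FPKM + 0.1) with limma 3.58.1 (R 4.3.3, Python 3.11.15), with a trend, 4 libraries, no covariate and Benjamini-Hochberg adjustment at 0.05. Fold changes are on that log2 scale, which understates changes of low records. Cuffdiff needs reads and was not run. FPKM give no read counts, so intervals cover what Cufflinks estimated. Hosts and strands came from GENCODE, with the strand of the containing gene for 20 records, and symbols from RefSeq. The box motifs, and the strand taken from a containing gene, were set after the counts of a stricter motif over the 261 records with a snoRNA gene had been seen. The script was tested on simulated data. Some cell type markers are not reported here.

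The members and lists were chosen with earlier results of these data known. Named records were those picked by role (U3, U8, U13, U14 and U22) or as references, the imprinted clusters and the 8 with the highest mean. They also included the 5 largest and 5 smallest fold changes among records whose arms did not overlap. Others were named after their values were seen. The labels give both arms replicate numbers 1 and 2, and the study's methods describe 2 biological replicates, so equal numbers were read as pairs. Deviations from the arm means correlated between equal numbers with r = 0.422 over 15587 records and 0.104 over the SNORD records, as descriptions across genes. Alternatives were the pseudocount, filter, scaling, status, summing per gene name, trend, replicate block, length and each library left out, and the interval midpoint, which was added after seeing the data.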

Additional observations from a re-analysis of the deposited data

How the results depend on the processing

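No SNORD record passed the adjusted threshold by limma under the pseudocounts, filters, scalings, statuses and trend tried, under the interval midpoint, or with a library left out. The exception was FPKM summed per gene name, where SNORD58A, SNORD57 and SNORD12C, all at 0 in miR-28BIO, were the 3 features called of 11309. With the replicate block, which uses the pairing of equal numbers, 0 were called, and 15 rather than 10 had an unadjusted p under 0.05, or 13.2% against 12.0% of all tested transcripts in that fit. The count of records lower in both miR-28BIO libraries (12) was 5 among members of at least 80 bases and ranged from 15 to 58 with 1 library left out (58 without miR-28CT replicate 1, 28 without miR-28BIO replicate 2, 21 without miR-28CT replicate 2), and the count of higher records (2) ranged from 6 to 40 (40 without miR-28BIO replicate 1, 16 without miR-28CT replicate 2, 9 without miR-28BIO replicate 2, 6 without miR-28CT replicate 1), since fewer libraries then have to be apart. Among all tested transcripts 25.2% to 36.6% were lower and 23.4% to 29.98% higher in these fits, against 13.2% to 50.9% and 5.26% to 35.1% of the SNORD records. The 21 records above 0 in all libraries fell to 7 when the lower interval bound had to be above 0.

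SNORD17 and SNORD3A kept their direction under every alternative tried, with log2 fold changes from -4.07 to -3.18 and from -4.84 to -3.42. SNORD102 (-0.09) was 0.082 with FPKM as deposited. With 1 library left out, the direction turned for SNORD102 (-1.05 to 0.87), SNORD100 (-0.35 to 4.47), SNORD2 (-1.92 to 3.36), SNORD28 (-3.60 to 1.28), SNORD29 (-2.02 to 0.11), SNORD47 (-2.27 to 0.061), SNORD80 (-4.54 to 0.22), SNORD13 (-1.87 to 1.32), SNORD14A (-0.91 to 1.82) and SNORD14C (-2.09 to 0.019). Such a fit leaves the replicate numbers unequal between the arms. In replicate pairs 1 and 2 the sign agreed for SNORD100 (2.64 and 1.49), SNORD47 (-1.06 and -1.15) and SNORD14C (-1.26 and -0.81). It also agreed for SNORD28 (-2.26 and -0.05) and SNORD80 (-3.84 and -0.48). It differed for SNORD102, SNORD2, SNORD29, SNORD13 and SNORD14A. With 1 library left out, the direction also turned for SNORD22 (-9.77 to 0.33), SNORD14D (-6.08 to 4.91) and SNORD110 (-6.55 to 4.86). There the only library left in an arm can be at 0, so that the pseudocount sets the size and no fold is meant. SNORD76 (1.23) ranged from 0.59 to 1.87 and SNORD36A (-0.95) from -1.90 to -0.0087, with no change of direction. The causes of these changes, and of the calls per gene name, were not tested. Few fragments and 2 libraries per arm limit the precision of the class.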
